A study of Mus musculus with 72 samples.

Results

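The miRNAs described here are the 55 rows of the deposited count tables, of 1927 in all, whose first name is mmu-miR-297, mmu-miR-466, mmu-miR-467 or mmu-miR-669 with any letter, copy or arm suffix. Most of these names belong to the Sfmbt2 cluster, a tandem array of miRNA genes in an intron of Sfmbt2. The rows were chosen by name and by no measured value, though with earlier results of these data known. The study sequenced small RNA from cerebellum (right), striatum (left) and cortex (left) of male mice, to ask how a heterozygous Thap1 mutation and a past nerve injury change dystonia-related brain regions. Each region had 4 groups: Thap1+/- crush, Thap1+/- naive, wild-type crush and wild-type naive. In the crush groups the sciatic nerve of the right side had been pressed for 1 min in mice aged 12 weeks, and the label gives a time of 12 weeks post injury; naive mice carry that time label too, and were not injured. Thap1+/- mice carry 1 inactive copy of Thap1, a transcription factor gene mutated in DYT6 dystonia; the labels name no Cre or transgene. Every group had 6 libraries except cortex wild-type naive, which had 5; their titles number them as biological replicates. Where a library is singled out it goes by its column name, with CB, STR or CX for the region and DYT6KO for Thap1+/-.

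Sfmbt2 encodes a Polycomb-related protein and is an imprinted gene expressed from the paternal copy in mouse placenta, where its intronic miRNAs are abundant. The array is rodent-specific. A miRNA precursor is cut to a duplex of a 5p and a 3p strand, of which usually 1 is kept, and the bases 2 to 8 of the kept strand, the seed, choose the target mRNAs. The precursors of this array are made of near-identical repeats, so that mature forms of different names differ by few bases.

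Placed by gene name in the GENCODE M21 annotation of GRCm38, 71 of the 81 precursor genes of the 4 numbers lie inside Sfmbt2, which spans chr2:10370510-10595253 on the plus strand. All 71 lie in intron 11 of the transcript Sfmbt2-205, on the strand of Sfmbt2, within 51.6 kb from chr2:10466663 to chr2:10518279. The other 10 lie elsewhere. By their names, 45 of the 55 rows come from inside Sfmbt2, 6 from outside it, and 4 join names of both kinds. Of the rows from outside, miR-466i-5p is the only one with more than 8 counts over all libraries. Its precursor gene Mir466i lies at chr13:17747473-17747593 on the plus strand, within Cdk13, a protein kinase gene on the opposite strand.

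Mature sequences matched by name in RefSeq (GRCm38.p6) for 8 of the 80 names held by the rows, with 8 different seeds. That table places the 8 on chromosomes 3, 5, 9, 10, 11 and 13, outside the array. Of them, miR-466j, miR-466k and miR-466i-3p share a row with names from inside Sfmbt2. Counts of such rows cannot be assigned to either place. The 8 are shown for the base composition that goes with the names. They fall into a pair of types: strands of mostly U and G, and strands of mostly C and A. The first 4 lines below are of the first type and the other 4 of the second. Seeds are in capitals.
miR-466j: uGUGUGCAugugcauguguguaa
miR-466k: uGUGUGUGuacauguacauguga
miR-467h: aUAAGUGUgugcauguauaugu
miR-669n: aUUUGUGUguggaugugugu
miR-466i-3p: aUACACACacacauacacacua
miR-467f: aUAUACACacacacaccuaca
miR-467g: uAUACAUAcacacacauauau
miR-466q: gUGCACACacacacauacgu
U and G make up 73.9% of miR-466j, a name of the row miR-466j/miR-466m-5p/miR-669m-5p, which had 1913 counts over all libraries. The same bases make up 13.6% of miR-466i-3p, whose row had 0 counts. Base composition did not go with counts throughout: miR-669n, with the highest share of U and G at 90.0%, also had 0 counts, as had the other 3 of the second type.

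Counts fell on few of the rows and almost entirely on one strand. Of the 55 rows, 35 had a count in at least 1 of the 71 libraries, 15 had counts in every library, and 20 were at 0 in all of them. The tables hold no value of 1, so that a listed 0 may stand for 1 count. The 22 rows named 5p took 97.2% of the counts of all members, against 1.01% for the 21 rows named 3p and 1.76% for the 12 rows whose first name gives no arm. Every 5p row was detected, against 9 of the 21 3p rows. The most counted 3p row, miR-466n-3p, had 866 counts in all.

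Among the 4 numbers, miR-467 rows held 52.2% of the counts, miR-669 rows 36.3%, miR-466 rows 11.2% and miR-297 rows 0.356%. miR-467e-5p alone took 36.9% and miR-669c-5p 26.6%. They were followed by miR-467c-5p with 9.64%, miR-467d-5p with 5.48%, miR-466h-5p with 3.49% and miR-466i-5p with 3.35%. miR-297a-5p, the most counted of its number, had 515 counts in all, 0.281% of the total. How reads that match several copies were shared out is not given in the sources used here, so the split between near-identical rows is uncertain.

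By name, the most counted rows had 1 precursor gene, and the rows with 10 or more together held fewer counts. How reads that match several genes were counted is not given. For rows with repeated genes, lower counts therefore cannot be told apart from lower levels. The 31 rows with 1 precursor gene inside Sfmbt2 held 164056 counts, and the 6 rows with 10 or more precursor genes held 5401. miR-467a-5p/miR-467b-5p, with 11 precursor genes, had 173 counts over all libraries, and miR-669a-5p/miR-669p-5p, with 14, had 3297. By contrast miR-467e-5p, from the single gene Mir467e (chr2:10505721-10505807), had 67724. Along the array, miR-467e-5p, miR-467d-5p and miR-669c-5p start 39.1, 41.0 and 42.6 kb after the first precursor. miR-669o-5p and miR-466h-5p follow at 47.6 and 48.2 kb. Of these 6 rows, the most counted among those with 1 precursor gene inside Sfmbt2, miR-467c-5p, at 7.27 kb, was the only one near the start. Rows with 0 counts lay beside them at both ends.

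**Figure D1:**
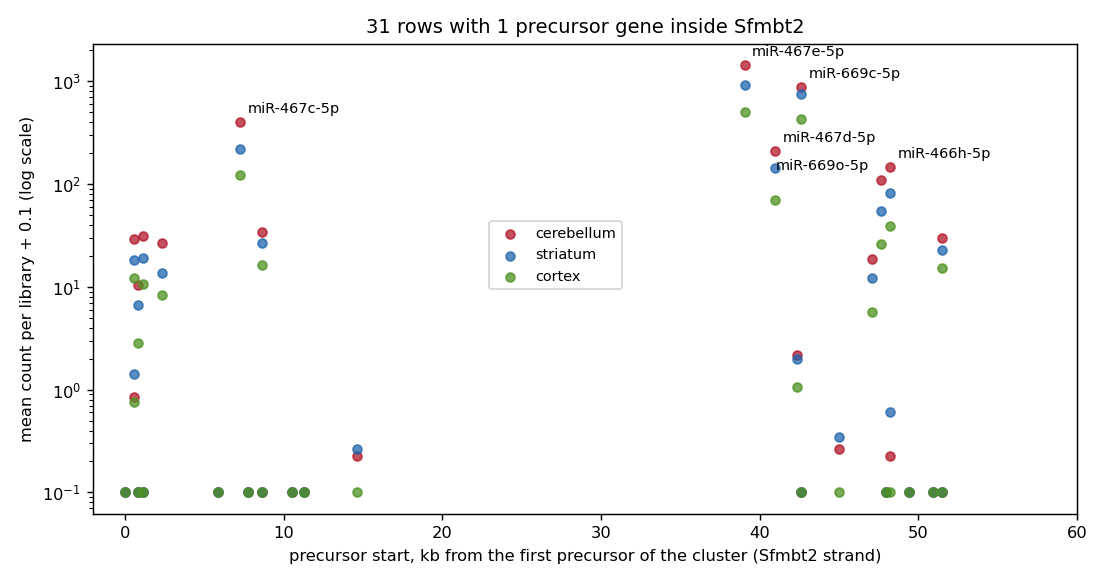
Mean count per library (log axis, 0.1 added) of the 31 rows with 1 precursor gene inside Sfmbt2, against the distance of the precursor from the first of the array in kb; each row has a point for cerebellum, striatum and cortex. The 3 most counted rows of the distal end (miR-467e-5p, miR-669c-5p and miR-467d-5p) start between 39.1 and 42.6 kb, and rows at 0 lie at both ends.

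Depth was 7479448 to 12589140 counts per library, of which 899 to 4466 fell on the members. Thap1 mRNA is not measured by these libraries, which leaves the genotype labels unchecked by it. All 5 miRNAs listed for neurons, among them miR-124-3p and miR-9-5p, were present in every group, at 80111 to 163963 summed CPM, and every other marker list was also detected in every group.

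The regions differed in their share of member counts, and the genotype and crush groups within a region overlapped. The members took 0.0323% ± 0.0029 of all counts in cerebellum (SD, n = 24), 0.0258% ± 0.0026 in striatum (n = 24) and 0.0154% ± 0.0027 in cortex (n = 23). Cerebellum libraries ran from 0.0261% to 0.0391%, striatum libraries from 0.0205% to 0.0297% and cortex libraries from 0.0108% to 0.0188%. Every cerebellum and striatum library was above every cortex library, while cerebellum and striatum overlapped. let-7 with miR-98, the most abundant brain miRNA family, took 55.4% to 75.7% of the counts in cerebellum, 39.0% to 50.1% in striatum and 41.4% to 56.6% in cortex. Its part in these shares was not tested beyond leaving it out, which kept the order at 0.0876%, 0.0477% and 0.0307%.

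**Figure D2:**
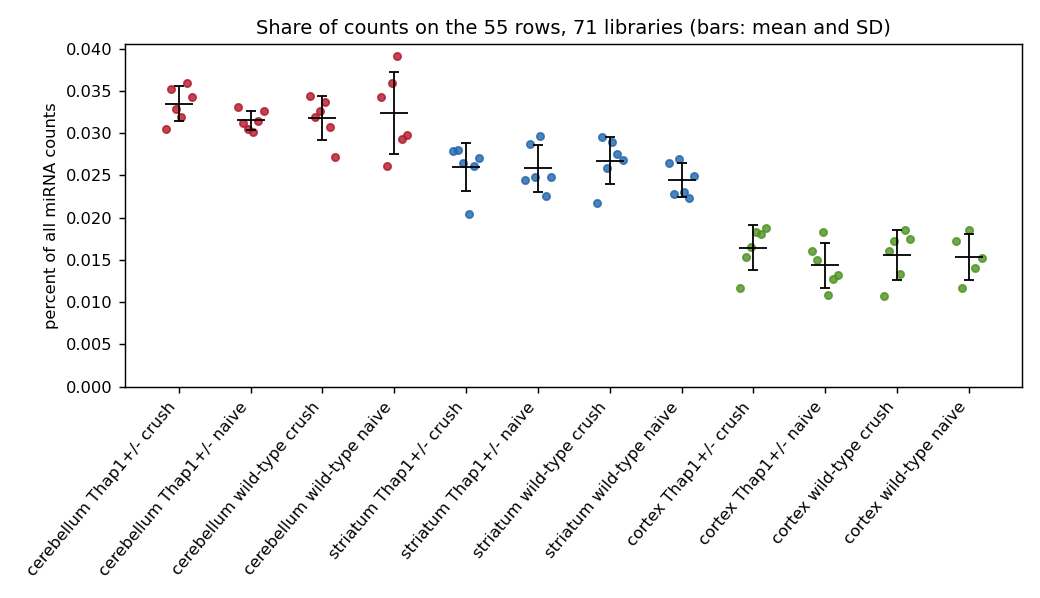
Percent of all miRNA counts of a library on the 55 rows (y axis, linear from 0), for the 12 groups; points are libraries, horizontal marks means and bars SD (n = 6, cortex wild-type naive n = 5). Cortex libraries lie between 0.0108% and 0.0188%, below every cerebellum and striatum library.

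The test between regions used the 17 naive wild-type libraries. Counts were tested with edgeR's quasi-likelihood test and called at a Benjamini-Hochberg adjusted p below 0.05 over the 579 miRNAs that passed a filter on low counts, 22 of them members. In cerebellum against cortex, 20 of these 22 members were higher and 1 was lower, where 68.6% of all tested miRNAs were called, 37.3% higher and 31.3% lower. The median log2 fold change was 1.62 over the 22 members and 0.06 over all 579. In cerebellum against striatum 17 were higher and 1 was lower, with 68.4% of all called, 31.1% higher and 37.3% lower, and with medians of 1.15 for the members and -0.08 for all. In striatum against cortex 9 were higher and none lower, with 54.6% of all called, 35.8% higher and 18.8% lower, and with medians of 0.59 and 0.19. That count of 9 was 7 with RLE scaling and with DESeq2, and 8 without let-7 and miR-98. Leaving out 1 library at a time gave 7 to 13. Of all miRNAs, 305 of 579 were called with RLE, 309 of 579 with DESeq2 and 295 of 551 without let-7 and miR-98. Without TMM scaling 16 of 22 members and 349 of all 579 miRNAs were called, and the median of all was 0.52. Averaged over the 4 groups of all 71 libraries, 20 of 23 members and 372 of all 655 miRNAs were called. A member that passed the filter only through cerebellum had to be higher there, so the 22 do not stand for all 55.

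miR-467e-5p, the most counted member, shows the size of the difference. On a scale common to all 71 libraries it stood at 124.2 (lowest), 140.0 (median) and 186.9 (highest) CPM in naive wild-type cerebellum. In striatum of the same group it stood at 63.3, 66.8 and 78.1 CPM. In the 5 cortex libraries it had 41.6, 57.0, 59.6, 63.6 and 66.0 CPM. Cerebellum did not overlap either other region, and striatum overlapped cortex. The log2 fold change was 1.33 ± 0.11 (SE) in cerebellum against cortex (edgeR, adjusted p = 5.76e-09) and 1.07 ± 0.11 against striatum (adjusted p = 4.35e-08). In striatum against cortex it was 0.26 ± 0.11 and did not pass (adjusted p = 0.0553).

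miR-467d-5p had the smallest p in both comparisons with cortex. It had 18.4, 21.0 and 24.3 CPM (lowest, median, highest) in naive wild-type cerebellum and 9.58, 11.2 and 12.8 CPM in striatum. The 5 cortex libraries had 6.03, 7.17, 7.26, 7.68 and 7.96 CPM. None of the 3 regions overlapped. Its log2 fold change was 1.54 ± 0.10 in cerebellum against cortex (edgeR, adjusted p = 1.70e-10), 0.90 ± 0.09 in cerebellum against striatum (adjusted p = 5.49e-08) and 0.64 ± 0.10 in striatum against cortex (adjusted p = 3.24e-05).

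Other members from inside Sfmbt2 differed by unequal amounts. miR-669o-5p rose by 2.22 ± 0.16 in cerebellum against cortex on the log2 scale, miR-466h-5p by 1.70 ± 0.14 and miR-467c-5p by 1.54 ± 0.15. miR-669c-5p, second in counts, rose by 0.76 ± 0.14, and miR-669k-5p was not called at 0.64 ± 0.31. In cerebellum against striatum miR-669c-5p rose by 0.41 ± 0.13 (edgeR, adjusted p = 0.0107); scaled to library totals without TMM its value was -0.051, under which the median of all miRNAs was -0.55. The row miR-466j/miR-466m-5p/miR-669m-5p, whose miR-466j sequence is printed above, rose by 2.69 ± 0.26 in cerebellum against cortex, with means of 5.91 ± 0.48 and 0.91 ± 0.29 CPM (SD, n = 6 and 5). It joins a precursor outside the array, so its counts cannot be assigned to the array alone.

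**Figure D3:**
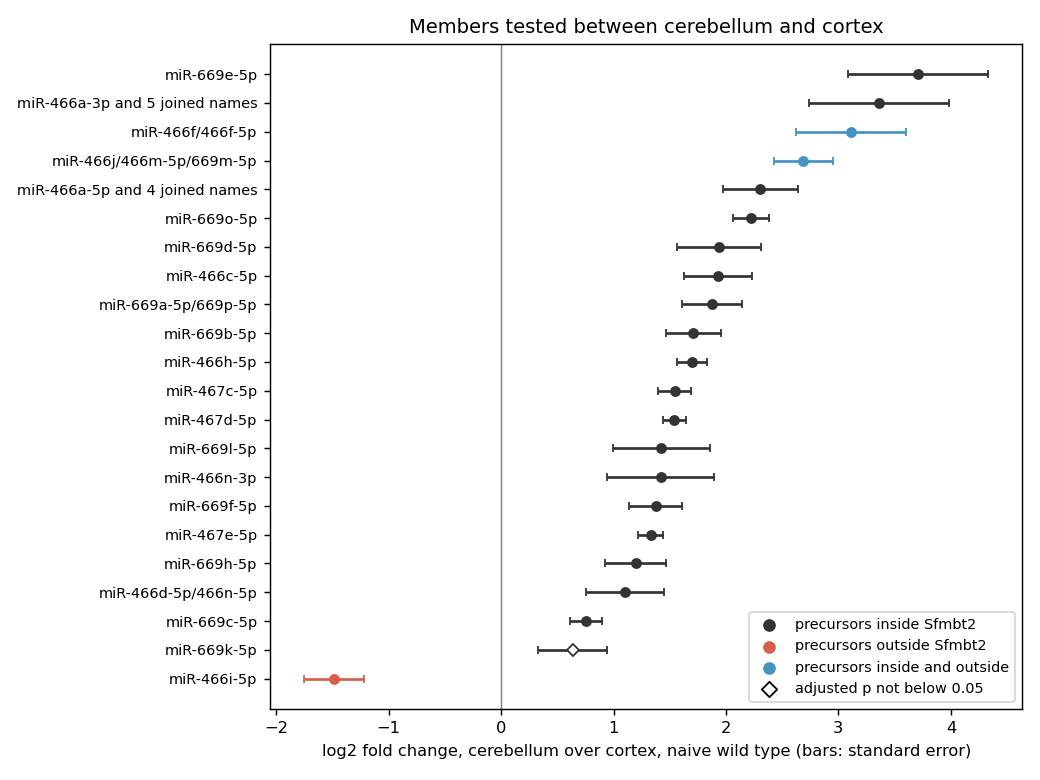
log2 fold change (x axis) in cerebellum over cortex of the 22 members tested in naive wild-type libraries, with bars of 1 standard error; colours give where the precursors lie, and an open diamond marks an adjusted p not below 0.05. miR-466i-5p, from outside Sfmbt2, is at -1.48, and the other 21 lie from 0.64 to 3.71.

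miR-466i-5p went the other way. It had 1.24, 3.86 and 7.73 CPM (lowest, median, highest, common scale) in naive wild-type cerebellum and 7.49, 9.21 and 11.8 CPM in striatum. The 5 cortex libraries had 9.90, 11.3, 12.3, 12.4 and 14.01 CPM. Cerebellum lay below every cortex library and overlapped striatum in part. The log2 fold change was -1.48 ± 0.27 in cerebellum against cortex (edgeR, adjusted p = 7.24e-05) and -1.16 ± 0.26 in cerebellum against striatum (adjusted p = 0.000516). In striatum against cortex it was -0.32 ± 0.25 (adjusted p = 0.298). Its sign there was positive without TMM scaling and when averaged over all 71 libraries. Fitted within the other groups it was also positive, at 0.18 in Thap1+/- crush and 0.19 in Thap1+/- naive, neither called. In wild-type crush miR-466i-5p was called higher in striatum, at 0.49 ± 0.16 (edgeR, adjusted p = 0.0160).

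Libraries that this test did not use gave the same order for most members. The same region contrasts were fitted within each of the 4 groups, 1 of which, naive wild type, is that of the test above. In all 4 groups 20 members were tested. In cerebellum against cortex 17 of the 20 were called higher in all 4 groups, 19 had a positive log2 fold change in all 4, and miR-466i-5p had a negative one in all 4. Of all tested miRNAs, 60.9% were called in either direction in Thap1+/- crush, 66.2% in Thap1+/- naive and 69.5% in wild-type crush. The share of all miRNAs called higher in all 4 groups was not computed, so the counts over 4 groups have no like background here. miR-466i-5p was at -0.11 ± 0.21 in Thap1+/- crush, not called, at -0.94 ± 0.17 in Thap1+/- naive and at -0.72 ± 0.17 in wild-type crush. In cerebellum against striatum 14 of the 20 were called higher in all 4 groups. Of all miRNAs 58.5%, 65.1% and 69.9% were called in either direction within each of the same 3 groups. In striatum against cortex 3 of the 20 were called higher in all 4 groups, with 34.2%, 44.5% and 47.5% of all called in either direction.

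Over all 71 libraries, 23 members passed the common filter. For 22 of them the mean was highest in cerebellum, then striatum, then cortex, as for 18.9% of all 655 miRNAs kept. Of the 22, miR-297a-5p, miR-466n-3p, miR-669e-5p, miR-466d-5p/miR-466n-5p and the row headed by miR-466a-3p did not pass the filter in cortex. A row kept only through other regions had to be lower in cortex, so its order is partly fixed by the filter. For 12 of the 23 every cerebellum library was above every cortex library, as for 10.2% of all. None of the 23 was below in that sense, as 9.31% of all were. The ratio of the mean CPM in cerebellum to that in cortex ran from 1.81 for miR-466d-5p/miR-466n-5p to 5.47 for miR-466f/miR-466f-5p, and was 0.580 for miR-466i-5p. Summed over the 45 rows from inside Sfmbt2, the level was 404 ± 60 CPM in cerebellum, 199 ± 24 in striatum and 135 ± 28 in cortex (SD, n = 24, 24 and 23). miR-466i-5p stood at 1.33% ± 0.47 of the counts of those rows in cerebellum, 5.06% ± 0.97 in striatum and 7.14% ± 1.97 in cortex.

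**Figure D4:**
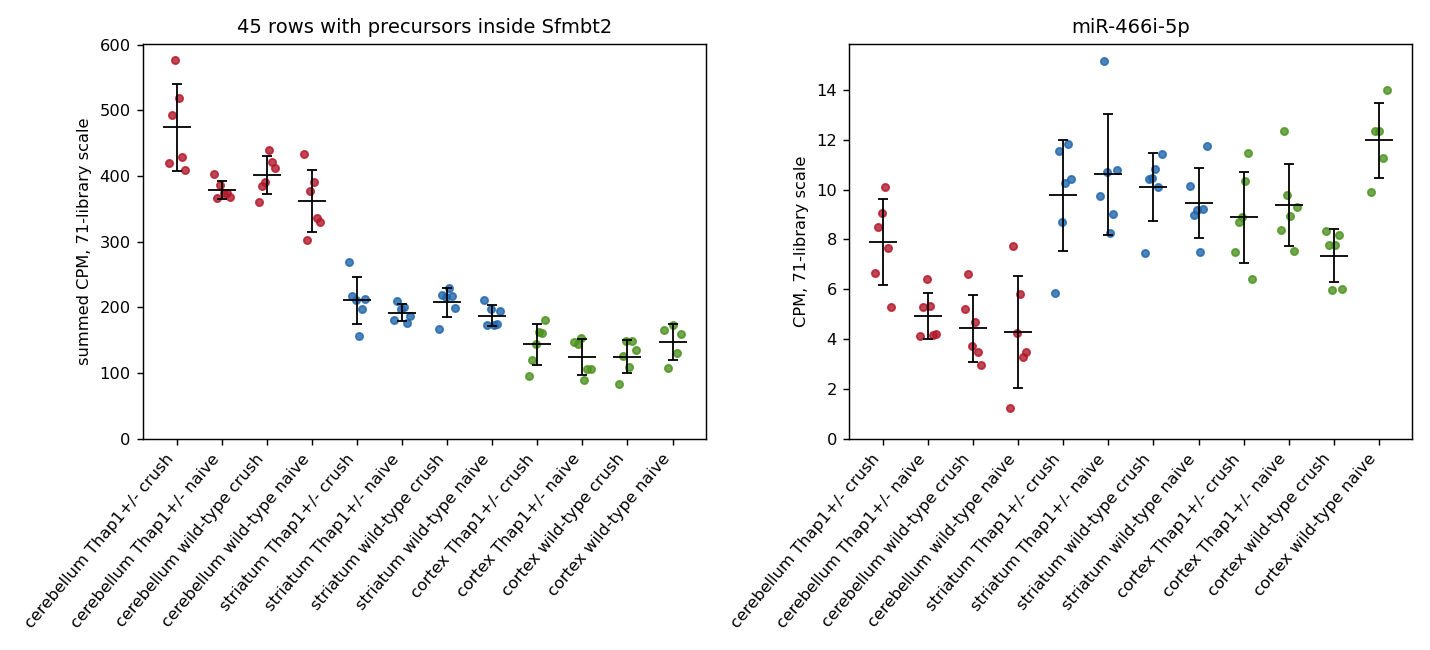
Summed CPM of the 45 rows with precursors inside Sfmbt2 (left) and CPM of miR-466i-5p (right) on the scale of all 71 libraries, for the 12 groups; points are libraries, marks means and bars SD. Summed rows average 404 CPM in cerebellum, 199 in striatum and 135 in cortex, while miR-466i-5p averages 5.38, 9.99 and 9.28 CPM.

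RNA was isolated with a different kit in cerebellum than in striatum and cortex, so region and kit cannot be told apart in the comparisons with cerebellum. The summed level of the 3 choroid plexus and ependyma markers, all detected in every group, followed the same order: it was 359 to 982 CPM in naive wild-type cerebellum, 226 to 328 in striatum and 95.1 to 121 in cortex. The 3 muscle markers summed to 4719 to 6317, 1240 to 1367 and 1369 to 1736 CPM, and the 3 red cell markers to 90.1 to 301, 29.6 to 107 and 27.1 to 103 CPM. Their part in the difference was not tested. In bulk tissue, fewer cells of a type and less RNA per cell cannot be told apart.

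Genotype and crush moved few members. The 4 groups of a region entered 1 fit, and 15 comparisons within regions were made: crush in either genotype, genotype with or without crush, and the difference of the crush effects. Comparisons of a region share groups, so their values are set side by side only. The filter left 23 members of 552 miRNAs in cerebellum, 22 of 575 in striatum and 18 of 549 in cortex.

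In cerebellum, 2 of 23 members were called higher in crushed Thap1+/- than in crushed wild-type mice and none lower, where 13.4% of all miRNAs were called and 4.35% of all were higher. They were miR-669c-5p and miR-466i-5p. miR-669c-5p had 78.3, 91.9 and 141.3 CPM (lowest, median, highest; scaled within cerebellum) in Thap1+/- crush and 61.0, 70.1 and 83.0 CPM in wild-type crush. The groups overlapped, with CB_DYT6KO_crush_47 at 141.3 and CB_DYT6KO_crush_86 at 128.3 CPM above the rest. Means were 102.4 ± 26.1 and 70.1 ± 7.82 CPM (SD, n = 6 each) and the log2 fold change 0.54 ± 0.13 (edgeR, adjusted p = 0.00918). miR-466i-5p had 3.96, 6.14 and 8.40 CPM in Thap1+/- crush and 2.30, 3.29 and 4.88 CPM in wild-type crush, again overlapping. Its log2 fold change was 0.85 ± 0.28 (adjusted p = 0.0463). The authors' deposited table gives adjusted p-values of 0.000158 for miR-669c-5p and 0.0239 for miR-466i-5p.

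In Thap1+/- cerebellum, crush against naive called miR-669c-5p higher and no other member, with 5.25% of all called and 1.27% of all higher. Naive libraries stood at 71.7, 73.2 and 81.2 CPM (lowest, median, highest), against the crush values above, and the log2 fold change was 0.46 ± 0.13 (edgeR, adjusted p = 0.0361). Of the 23 members, 20 had a positive log2 fold change, with a median of 0.41, against 52% positive and a median of 0.01 over all 552. The authors' deposited table gives 18 members an adjusted p in that comparison, of which 6 are below 0.05. Among them are miR-669c-5p, miR-467c-5p, miR-467d-5p and miR-467e-5p. The share of all miRNAs below 0.05 in the authors' table was not computed. DESeq2 as run here called 6 of 23 members and 70 of all 552 miRNAs.

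CB_DYT6KO_crush_47 and CB_DYT6KO_crush_86 also had the largest let-7 shares, 75.7% and 74.2%, with 61.2% to 75.7% over Thap1+/- crush, 59.3% to 64.3% over Thap1+/- naive and 57.3% to 64.7% over wild-type crush. Without both, no member was called in either comparison. Of all 578 miRNAs, 10 were called in crushed Thap1+/- against crushed wild-type mice and 4 in Thap1+/- crush against naive. miR-669c-5p then stood at a log2 fold change of 0.33 in the first and at 0.23 in the second, where the median of the members was 0.21. Without TMM scaling no member was called either, with 38 and 39 of all 552 called. The values of miR-669c-5p were then 0.30 and 0.16. The median of the members in Thap1+/- crush against naive was then 0.12, and that of all miRNAs -0.22. In counts per 1000000 of the library total, miR-669c-5p averaged 86.7 ± 5.59 in Thap1+/- crush, 77.4 ± 5.50 in Thap1+/- naive and 70.4 ± 14.6 in wild-type crush (SD, n = 6 each). The share of counts on all members was 0.0335% ± 0.0021 in Thap1+/- crush and 0.0318% ± 0.0026 in wild-type crush. The summed astrocyte markers (2 of 2 detected) were at 16541 to 25158 CPM in Thap1+/- crush and 24129 to 31235 in wild-type crush; their part was not tested.

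**Figure D5:**
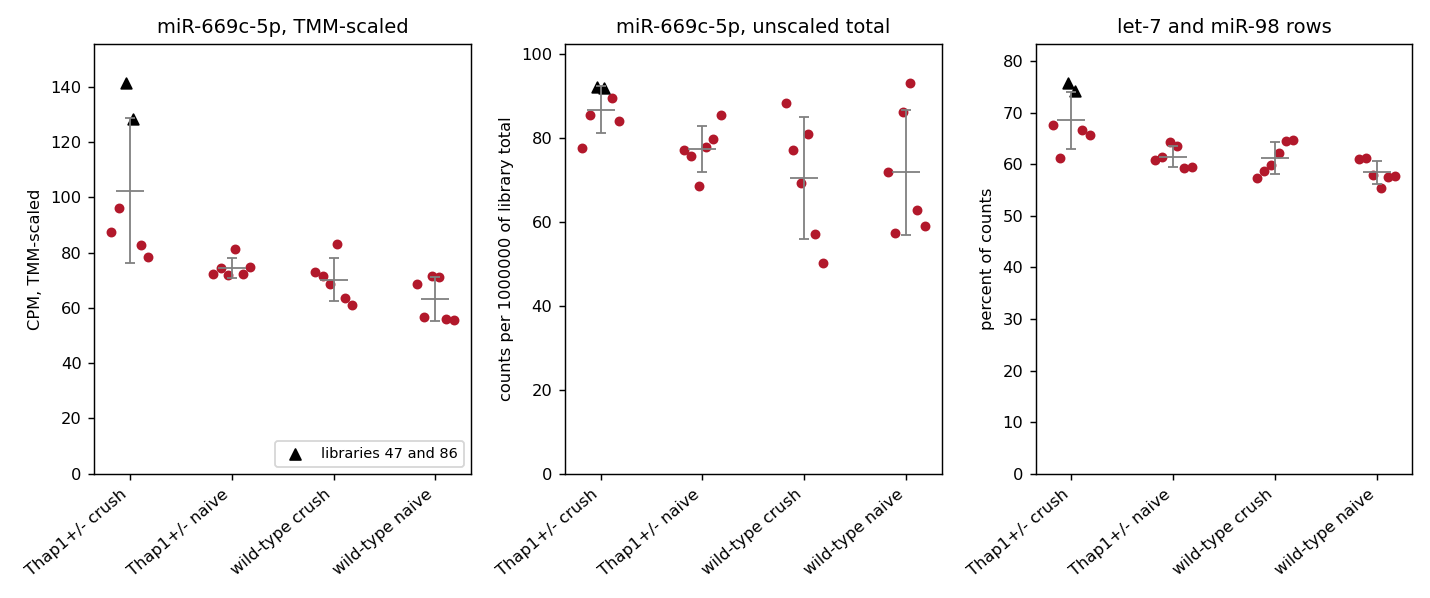
miR-669c-5p in the 4 cerebellum groups as TMM-scaled CPM (left) and as counts per 1000000 of the library total (middle), and the percent of counts on let-7 and miR-98 rows (right); points are libraries, triangles CB_DYT6KO_crush_47 and CB_DYT6KO_crush_86, marks means and bars SD (n = 6). Both triangles stand above the other libraries of their group on the left (141.3 and 128.3 CPM) and right (75.7% and 74.2%).

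No member was called in the other 3 cerebellum comparisons. In naive Thap1+/- against naive wild-type mice and in wild-type crush against naive, edgeR called 0% of all 552 miRNAs, and 1 member in each had an unadjusted p below 0.05, as had 9.06% and 7.97% of all. The smallest p was that of miR-466f/miR-466f-5p at -0.33 ± 0.15 in the first and of miR-467e-5p at 0.23 ± 0.11 in the second. DESeq2 called no member in either. The difference of the crush effects between genotypes also had 0% called and 3 members with an unadjusted p below 0.05, against 10.3% of all, with miR-669h-5p first at 0.79 ± 0.33 (edgeR, adjusted p = 0.433), and DESeq2 called none.

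In cortex, 2 of 18 members were called lower in crushed than in naive wild-type mice, miR-466i-5p and miR-669k-5p. Of all miRNAs 35% were called and 13.8% were lower, larger shares than among the members. miR-466i-5p had 6.33, 8.40 and 8.63 CPM (lowest, median, highest; scaled within cortex) in wild-type crush. The 5 naive libraries had 10.4, 12.3, 13.7, 13.99 and 14.7 CPM. On this scale the groups did not overlap, and the log2 fold change was -0.74 ± 0.15 (edgeR, adjusted p = 0.00107). In counts per 1000000 of the library total they ran from 6.63 to 9.69 in wild-type crush and from 9.59 to 12.3 in wild-type naive, which overlapped, and the log2 fold change without TMM scaling was -0.43 ± 0.14 (edgeR, adjusted p = 0.0180). The same miRNA is the member with the smallest adjusted p in the authors' deposited table for this comparison, 2.19e-05. miR-669k-5p had 0.846, 1.11 and 2.004 CPM in wild-type crush and 1.73, 2.07, 2.15, 2.35 and 4.401 CPM in wild-type naive, with a log2 fold change of -0.90 ± 0.33 (adjusted p = 0.0402). The groups overlapped, and CX_wt_naive_96 was the highest naive library. Without TMM scaling, which moved the median of all miRNAs to 0.36 from 0.06, miR-669k-5p was not called (-0.59, adjusted p = 0.148), and the row miR-466j/miR-466m-5p/miR-669m-5p was called higher in wild-type crush (0.91 ± 0.36, adjusted p = 0.0457).

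In Thap1+/- cortex edgeR called no member for crush against naive, with 0.729% of all called and 1 member, against 8.56% of all, at an unadjusted p below 0.05, and DESeq2 called none. miR-466i-5p had 6.76, 9.29 and 12.3 CPM in Thap1+/- crush and 7.98, 9.43 and 13.1 CPM in Thap1+/- naive, which overlapped. The difference of the crush effects, Thap1+/- minus wild type, was 0.69 ± 0.21 for miR-466i-5p (edgeR, adjusted p = 0.0328). That was the only call among 18 members, close to the 5.65% of all miRNAs called higher, with 13.5% of all called. miR-466i-5p was not called there without TMM scaling (0.37, adjusted p = 0.167). With 1 cortex library left out at a time it was not called in 10 of 23 fits. Over the 23 fits the difference ran from 0.60 to 0.78 and its adjusted p from 0.00505 to 0.0657. Without CX_DYT6KO_naive_16 and CX_DYT6KO_naive_18, 207 of all 560 miRNAs were called in either direction, and 5 of 19 members, all higher. They were miR-466i-5p (0.77 ± 0.20), miR-466h-5p, miR-467c-5p, miR-467e-5p and miR-669k-5p.

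Between genotypes edgeR called no cortex member. In naive mice 20.2% of all miRNAs were called; 3 of 18 members had an unadjusted p below 0.05, against 37% of all. There miR-466i-5p averaged 9.83 ± 1.76 CPM in Thap1+/- and 13.02 ± 1.71 CPM in wild-type mice (SD, n = 6 and 5), which is -0.41 ± 0.15 on the log2 scale (edgeR, adjusted p = 0.0554). The authors' deposited table gives it an adjusted p of 0.0361. It was called lower by DESeq2 (-0.43, adjusted p = 0.0296), with RLE scaling (-0.43, adjusted p = 0.0473) and with a filter at 10 CPM (-0.42, adjusted p = 0.0473), and not without TMM scaling, which called no member. CX_DYT6KO_naive_18 had a let-7 share of 56.1%, with the other Thap1+/- naive libraries at 46.1% to 49.6%, and CX_DYT6KO_naive_16 had the lowest median correlation with the other cortex libraries, 0.9786 (Pearson's r of log2 CPM). By that correlation CX_DYT6KO_naive_18 stood at 0.9875, above CX_DYT6KO_naive_63 at 0.9862, which was kept. Without CX_DYT6KO_naive_16 and CX_DYT6KO_naive_18, 225 of all 560 miRNAs were called in either direction, and 2 of 19 members. Both were lower in Thap1+/- naive than in wild-type naive mice. They were miR-466i-5p (-0.49 ± 0.15, edgeR, adjusted p = 0.0156) and miR-466h-5p (-0.55 ± 0.19, adjusted p = 0.0251). In crushed mice 0% were called by edgeR; 1 member, against 7.83% of all, had an unadjusted p below 0.05, miR-669o-5p at 0.45 ± 0.20, and DESeq2 called none.

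Cortex wild-type naive, the baseline of those calls, also differed in other values. Its let-7 share was 51.5% to 56.6%, against 41.4% to 48.6% in wild-type crush. The 4 vessel markers, all detected, summed to 29757 to 35099 CPM in wild-type crush and 36431 to 45033 in wild-type naive, and the 2 astrocyte markers to 34939 to 45234 CPM in wild-type crush and 23283 to 35089 in wild-type naive. The part of these in the calls was not tested.

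In striatum no member was called in any of the 5 comparisons. Of all 575 miRNAs 0.174% were called in wild-type crush against naive and 0% in the other 4. Between 1 and 2 of 22 members had an unadjusted p below 0.05 in each, against 3.65% to 8.17% of all, and DESeq2 called none. The smallest p of each comparison belonged to miR-467d-5p, miR-467e-5p or miR-669a-5p/miR-669p-5p. miR-467e-5p averaged 103.7 ± 20.6 CPM in Thap1+/- crush and 87.3 ± 6.33 CPM in Thap1+/- naive striatum (SD, n = 6 each), a difference of 0.25 ± 0.10 on the log2 scale (edgeR, adjusted p = 0.470). miR-467d-5p averaged 16.2 ± 2.60 CPM in wild-type crush and 13.3 ± 1.55 CPM in wild-type naive striatum, at 0.29 ± 0.11 (adjusted p = 0.503).

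Within regions the members varied together to different degrees. Spearman's rho of miR-467e-5p with the sum of the other members was 0.82 in cerebellum, 0.70 in striatum and 0.87 in cortex (n = 24, 24 and 23 libraries). That of miR-669c-5p was 0.47, 0.43 and 0.80, and that of miR-466i-5p 0.29, 0.24 and 0.31. Of 477 other miRNAs tested in all 3 regions, the 5 with the highest mean rho with the summed members were miR-98-5p (0.640), let-7a-5p (0.630), miR-155-5p (0.619), let-7i-5p (0.599) and let-7g-5p (0.592). These are descriptions over libraries that share scaling factors and groups, and carry no test.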

How the data were processed

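Mature miRNAs were counted in 71 libraries of 12 groups, of 72 samples in the labels; 1 naive wild-type sample of cortex was not analysed here. The counts per miRNA were deposited as whole numbers by the authors, who, per the submitters' processing notes, used featureCounts 1.6.4 and R 4.1.0. The aligner, annotation and genome build, and how multi-mapped reads and molecular identifiers were handled, are details not given in the sources used here. The authors' log2 fold changes and adjusted p-values, deposited in the same tables, were read only to set beside the present calls. Another 284 columns of per-sample values were not used. Libraries were put in groups by column name; the number in the name could not be tied to 1 title.

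The members and lists were chosen with earlier results of these data known. Counts were tested with edgeR 4.0.16 (R 4.3.3), with TMM scaling, filterByExpr, the quasi-likelihood test and Benjamini-Hochberg adjustment over all tested miRNAs, two-sided, called at 0.05. The libraries of a region entered 1 fit, and the 17 naive wild-type libraries another for regions. The standard error is the size of a log2 fold change divided by the root of its F. CPM are counts per 1000000 after TMM scaling. The fits were tested on simulated data. Alternatives included DESeq2 1.42.0. The least different replicate pair gave 9.76 as chi-square over degrees of freedom, so each library counted as 1. Each p-value judges a difference between groups against the spread between the libraries of its fit.

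Members named are the 12 highest in CPM, every called member, the most counted of each number, the smallest p of each comparison, and the 5 most alike miRNAs. Marker lists covered neurons, oligodendrocytes, astrocytes, red cells, vessels, choroid plexus and ependyma, muscle, liver and white cells.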

Additional observations from a re-analysis of the deposited data

Results flagged for a closer look

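In 168 checks of 1 value within 1 group (the share of counts on the members, or the CPM of a member scaled within its region), 12 values from 11 libraries stood apart from their group by Dixon's criterion, where chance gives about 1 in 20. In cerebellum Thap1+/- crush, CB_DYT6KO_crush_47 had 20.2 CPM of miR-669o-5p, with the others at 8.68 to 12.8, and 14.6 CPM of miR-669a-5p/miR-669p-5p, with the others at 5.80 to 9.08. CB_DYT6KO_crush_86 had 0 CPM of miR-297a-5p, with the others at 0.758 to 1.12. In cerebellum Thap1+/- naive, CB_DYT6KO_naive_63 had 81.2 CPM of miR-669c-5p, with the others at 71.7 to 74.9. In cerebellum wild-type naive, CB_wt_naive_31 had 137.7 CPM of miR-467e-5p, with the others at 100.6 to 114.4.

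In striatum Thap1+/- crush, STR_DYT6KO_crush_86 had 0.0205% of its counts on the members, with the others at 0.0261% to 0.0280%. In striatum Thap1+/- naive, STR_DYT6KO_naive_63 had 9.40 CPM of miR-669o-5p, with the others at 4.71 to 6.44. In striatum wild-type crush, STR_wt_crush_2 had 8.69 CPM of miR-466i-5p, with the others at 12.2 to 14.1. In striatum wild-type naive, STR_wt_naive_118 had 9.44 CPM of miR-466h-5p, with the others at 7.88 to 8.17.

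In cortex wild-type crush, CX_wt_crush_139 had 1.40 CPM of miR-297a-5p, with the others at 0 to 0.440. In cortex wild-type naive, CX_wt_naive_96 had 4.401 CPM of miR-669k-5p, with the others at 1.73 to 2.35, and CX_wt_naive_118 had 0.230 CPM of miR-297a-5p, where the others were at 0.

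The crush effect on miR-466i-5p in cortex differed between genotypes, by 0.69 on the log2 scale, Thap1+/- minus wild type (edgeR, adjusted p = 0.0328, from the term for the difference itself). This difference was not called without TMM scaling, without the low-count filter, or in 10 of 23 fits that left out 1 library.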

How the results depend on the processing

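Of 1861 values under alternatives, 1677 kept direction and side of the threshold, and 16 changed sign. In naive cortex by genotype, members called numbered 0 as reported and 1 with RLE scaling, DESeq2 and a filter at 10 CPM. There were 2 without CX_DYT6KO_naive_16 and CX_DYT6KO_naive_18 (0 to 3 leaving out 1 library). Of all miRNAs 111 of 549 were called as reported, 110 of 549 with RLE and 137 of 549 with DESeq2. At 10 CPM they were 102 of 306, and without both libraries 225 of 560. For crush in wild-type cortex (2) there was 1 without the filter and with that at 10 CPM (leave-one-out 1 to 2). Without TMM there were 2, of which 1 was higher and 1 lower. Of all miRNAs 192 of 549 were called as reported and 156 of 938 without the filter. At 10 CPM they were 142 of 306, and without TMM 240 of 549. For the difference of crush effects in cortex (1) there were 0 without the filter and without TMM. Without CX_DYT6KO_naive_16 and CX_DYT6KO_naive_18 there were 5 (leave-one-out 0 to 3). Of all miRNAs 74 of 549 were called as reported and 48 of 938 without the filter. Without TMM they were 166 of 549, and without both libraries 207 of 560. For crush in Thap1+/- cerebellum (1) there were 3 with RLE, 6 with DESeq2, 4 at 10 CPM and 2 without let-7 and miR-98. There were 0 without the filter, without TMM, with only the groups compared and without CB_DYT6KO_crush_47 and CB_DYT6KO_crush_86 (leave-one-out 0 to 5). Of all miRNAs 29 of 552 were called as reported, 38 of 552 with RLE and 70 of 552 with DESeq2. At 10 CPM, which kept 6 members, they were 40 of 277, and without let-7 and miR-98 26 of 540. In the settings with 0 members they were 11 of 935, 39 of 552, 8 of 500 and 4 of 578, in that order. For genotype in crushed cerebellum (2) there was 1 without the filter. There were 0 without TMM, with only the groups compared and without CB_DYT6KO_crush_47 and CB_DYT6KO_crush_86 (leave-one-out 1 to 4). Of all miRNAs 74 of 552 were called as reported and 31 of 935 without the filter. In the settings with 0 members they were 38 of 552, 6 of 498 and 10 of 578, in that order. No share of all miRNAs is given here for the leave-one-out fits.

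Between regions, the filter at 10 CPM left 6 members, of which 2 were called in striatum against cortex and 6 in each comparison with cerebellum. Of all 319 miRNAs, 222 were called in striatum against cortex, 260 in cerebellum against cortex and 274 in cerebellum against striatum. Without TMM, striatum against cortex had 16 of 22 members and 349 of 579 miRNAs called, and the median of all miRNAs was 0.52 in place of 0.19. Averaged over all 71 libraries, 20 of 23 members and 372 of 655 miRNAs were called. RLE moved that median to 0.02, and in cerebellum against striatum no TMM moved it to -0.55 from -0.08. A replicate block on the number ending the column name was fitted for striatum against cortex, cerebellum against cortex and cerebellum against striatum. Members called were 10, 21 and 18, against 9, 21 and 18. Of all 579 miRNAs 321, 396 and 400 were called, against 316, 397 and 396. The regions of a group share these numbers, apart from 136, which cortex lacks, but the labels do not say that they mark an animal. Of same-numbered pairs, 32 of 70 over all groups had a correlation above 0.1 (median 0.081). Among naive wild-type libraries 13 of 16 did (median 0.13). Pairs of unlike number were not compared, so these values cannot decide whether the regions are paired. The reported test took the libraries of different regions as independent. Within regions no paired analysis was possible because the groups share no number.

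Signs changed in striatum against cortex for miR-669a-5p/miR-669p-5p (RLE -0.085, DESeq2 -0.086, leave-one-out -0.14 to 0.24), miR-669h-5p (RLE and DESeq2 -0.033, leave-one-out -0.038 to 0.24), miR-669k-5p (no filter 0.079, no TMM 0.33, average of 71 libraries 0.42, leave-one-out -0.13 to 0.28) and miR-466i-5p (no TMM 0.013, average 0.11), and in cerebellum against striatum for miR-669c-5p (no TMM -0.051). Of these the reported test called miR-669c-5p only. Without let-7 and miR-98 in the total, the member share was 0.0876% in cerebellum, 0.0477% in striatum and 0.0307% in cortex. The causes of these changes were not tested. Summing members by seed was not run, since sequences matched for 8 of 80 names. Rows under about 1 CPM rest on few counts.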

Other observations

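The marker lists that stand beside no result above gave these ranges of summed CPM over all 71 libraries, with every marker detected in every group. Oligodendrocyte markers (3 miRNAs) ran from 3080 to 5652 CPM in cerebellum, 2305 to 5695 in striatum and 1585 to 3487 in cortex. White cell markers (3 miRNAs) ran from 74.3 to 154.5, 108.5 to 373.2 and 118.9 to 292.7 CPM. miR-122-5p, a miRNA of liver, ran from 36.1 to 73.5, 37.6 to 58.5 and 34.3 to 61.6 CPM.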
